A study of Mus musculus with 6 samples.

Results

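The cartilage collagens and matrix genes are 10 genes whose products build cartilage matrix and which are known targets of the chondrocyte transcription factor Sox9. They are Col2a1, Col9a1, Col9a2, Col9a3, Col11a1, Col11a2, Acan, Lect1, Matn3 and Comp. They were taken by symbol from a table of 20325 genes, which lists all 10. RNA was sequenced from C3H10T1/2 cells, a mesenchymal progenitor line derived from C3H mouse embryos, at passages 10 to 15. The 6 libraries formed 2 groups of 3, parental cells given a scrambled small interfering RNA (control) and parental cells given small interfering RNAs against Ring1a and Ring1b (knockdown). The sources used here do not give the time between transfection and harvest. Whether the numbered replicates were separate cultures is not stated, and the p-values therefore cover only the spread among these 6 samples, which may be technical. Ring1a and Ring1b, encoded by Ring1 and Rnf2, are the E3 ubiquitin ligases of Polycomb repressive complex 1, which marks histone H2A and holds developmental genes silent.

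Cartilage matrix is a network of thin fibrils filled with hydrated proteoglycan. The fibrils are heterotypic: type II collagen forms the bulk, type XI collagen sits within the fibril and limits its width, and type IX collagen is bound to the surface and links fibrils to their surroundings. Aggrecan swells the network with water, while matrilin 3 and cartilage oligomeric matrix protein join its parts. In chondrocytes Sox9, with its partners Sox5 and Sox6, activates enhancers of these genes. C3H10T1/2 cells can be driven towards cartilage, bone, fat or muscle, and the cultures here were growing in medium with serum.

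RefSeq promoters (build GRCm38.p6, 250 bases before to 50 bases after each annotated start) matched 7 of the 10 genes, with 8 starts, since Col9a1 has 2. Col2a1, Col9a3 and Comp had no entry. The upstream 250 bases are printed for the 2 genes with the lowest knockdown level relative to control, Acan and Lect1 (symbol Cnmd in RefSeq), for the first start of Col9a1, and for Col11a2, which differed least. CG dinucleotides, the sites where vertebrate DNA is methylated and which gather in CpG islands, are in capitals. The windows are chr7:79052976-79053225 (plus strand) for Acan, chr14:79662184-79662433 (minus strand) for Lect1, chr1:24177360-24177609 (plus strand) for Col9a1 and chr17:34038888-34039137 (plus strand) for Col11a2.
Acan: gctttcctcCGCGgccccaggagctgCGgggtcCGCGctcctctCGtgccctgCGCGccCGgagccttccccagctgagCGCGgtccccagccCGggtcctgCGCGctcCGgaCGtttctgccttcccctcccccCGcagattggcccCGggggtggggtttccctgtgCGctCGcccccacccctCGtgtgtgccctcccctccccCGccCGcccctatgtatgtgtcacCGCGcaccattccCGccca
Lect1: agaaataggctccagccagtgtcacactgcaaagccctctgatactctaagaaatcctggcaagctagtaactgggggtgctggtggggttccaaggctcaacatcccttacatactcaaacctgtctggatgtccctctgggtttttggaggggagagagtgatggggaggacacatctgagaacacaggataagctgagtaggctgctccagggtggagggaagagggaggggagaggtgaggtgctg
Col9a1, first start: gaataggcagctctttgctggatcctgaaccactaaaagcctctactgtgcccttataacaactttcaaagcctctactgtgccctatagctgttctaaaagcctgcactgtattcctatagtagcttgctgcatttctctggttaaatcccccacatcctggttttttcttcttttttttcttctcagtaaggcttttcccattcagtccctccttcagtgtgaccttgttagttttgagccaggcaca
Col11a2: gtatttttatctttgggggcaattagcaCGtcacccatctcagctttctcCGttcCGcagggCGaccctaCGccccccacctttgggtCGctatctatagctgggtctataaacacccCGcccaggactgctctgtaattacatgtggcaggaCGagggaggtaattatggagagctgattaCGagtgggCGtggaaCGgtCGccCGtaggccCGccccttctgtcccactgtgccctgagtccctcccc
The printed stretch of Acan holds 26 CG dinucleotides, that of Col11a2 14, and those of Lect1 and Col9a1 hold 0. Over the whole 300 bases Acan had 10.3 CG per 100 bases, Col11a2 5.33, Matn3 5.0, Col9a2 3.33, Col11a1 3.0, Lect1 and the second start of Col9a1 0.333, and the first start of Col9a1 0. The median of all 32851 promoters in the table was 2.33, with quartiles of 1.0 and 6.67. The genes that fell therefore included promoters above the upper quartile (Acan) and below the lower one (Lect1 and Col9a1). AACAAT, the core of the motif bound by Sox factors, or its reverse complement ATTGTT was found in 0 of the 8 member promoters and in 10.7% of all promoters. TATAAA or its reverse complement TTTATA was found in 1 of the 8, on the printed strand of Col11a2 starting 143 bases before the start, and in 13.6% of all promoters. These windows do not cover enhancers.

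All values below are the authors' normalized signals, that is, estimated reads per gene after median normalization. Deposited totals ran from 13100000 to 19500000 per library, and the depth before scaling, estimated from the value of 1 read in each library, from 4600000 to 51800000 reads. Rnf2 stood at 815, 829 and 799 in control libraries against 129, 76.5 and 152 after knockdown, so it fell (log2 difference −2.82, SE 0.28, limma adjusted p = 0.00946). Ring1 stood at 336, 386 and 374 and at 162, 268 and 186, without overlap, and did not pass with all libraries (log2 difference −0.86, SE 0.23, limma adjusted p = 0.104) but did without knockdown replicate 2 (−1.06, SE 0.10, limma adjusted p = 3.86e-06). Knockdown replicate 2 was unlike the rest. Across genes it correlated with the other 5 libraries at 0.821 to 0.867 (Pearson, log2 scale), against 0.944 to 0.993 for all other pairs, and 20.6% of its total lay in 83 genes of cytoplasmic ribosomal proteins, against 5.07 to 5.81% elsewhere. It was also the shallowest library, at an estimated 4600000 reads, so the results for the 10 cartilage genes and the counts of each gene list below are given with and without it. Of the other genes named, those with a call in all 6 libraries kept its direction and their call without it. Leaving out other libraries ended more calls. Of the 28 named genes with a call, which include 6 of the 10 cartilage genes, 21 lost it without knockdown replicate 1 and 12 without knockdown replicate 3. Without control replicate 1, 2 or 3, 27, 28 and 27 lost it. Without control replicate 1 or 3 the remaining gene, Ucma, missed the filter on mean signal and was not tested. Of 6 listed markers of foreign cells, Ptprc, Pecam1, Cdh5, Epcam and Krt18 did not exceed 4.25 in any library, which is 1 read in knockdown replicate 2. Cd68 was higher, at 13.7, 10.0 and 9.94 in the controls and 10.7, 17.0 and 7.82 in the knockdowns.

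All 10 genes were lower in the knockdown, and in all 10 the highest knockdown library lay below the lowest control. With all libraries 6 of them fell (limma, Benjamini-Hochberg adjusted p under 0.05 over the 12085 genes whose mean signal reached 10), namely Acan, Lect1, Col9a3, Col2a1, Col9a1 and Col9a2. Across all genes tested 1.78% fell and 3.2% rose by that rule (4.98% did either), and 23.7% had all knockdown libraries below all controls. Col11a1, Matn3, Comp and Col11a2 did not pass. The median log2 difference, knockdown minus control on the log2(signal + 1) scale, was −2.24 for the 10 genes and 0.01 for all genes tested. Together the 10 genes held 0.385 to 0.392% of the deposited total in the controls and 0.0950, 0.0355 and 0.112% in knockdown replicates 1, 2 and 3. Without knockdown replicate 2 all 10 fell, with a median of −2.21, where 26.1% of all genes tested fell and 23.8% rose (49.9% did either). Without control replicate 1, 2 or 3 limma called 0 of the 10 (9, 10 and 8 of them at an unadjusted p under 0.05) and 0 of all genes (1495, 1529 and 1475 at an unadjusted p under 0.05). Without knockdown replicate 1 it called Lect1 and Acan (0.174% of all genes tested fell), and without knockdown replicate 3 Lect1, Acan, Col9a1 and Col2a1 (0.472%). In bulk RNA, fewer cells expressing a gene and less RNA per cell cannot be told apart.

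**Figure D1:**
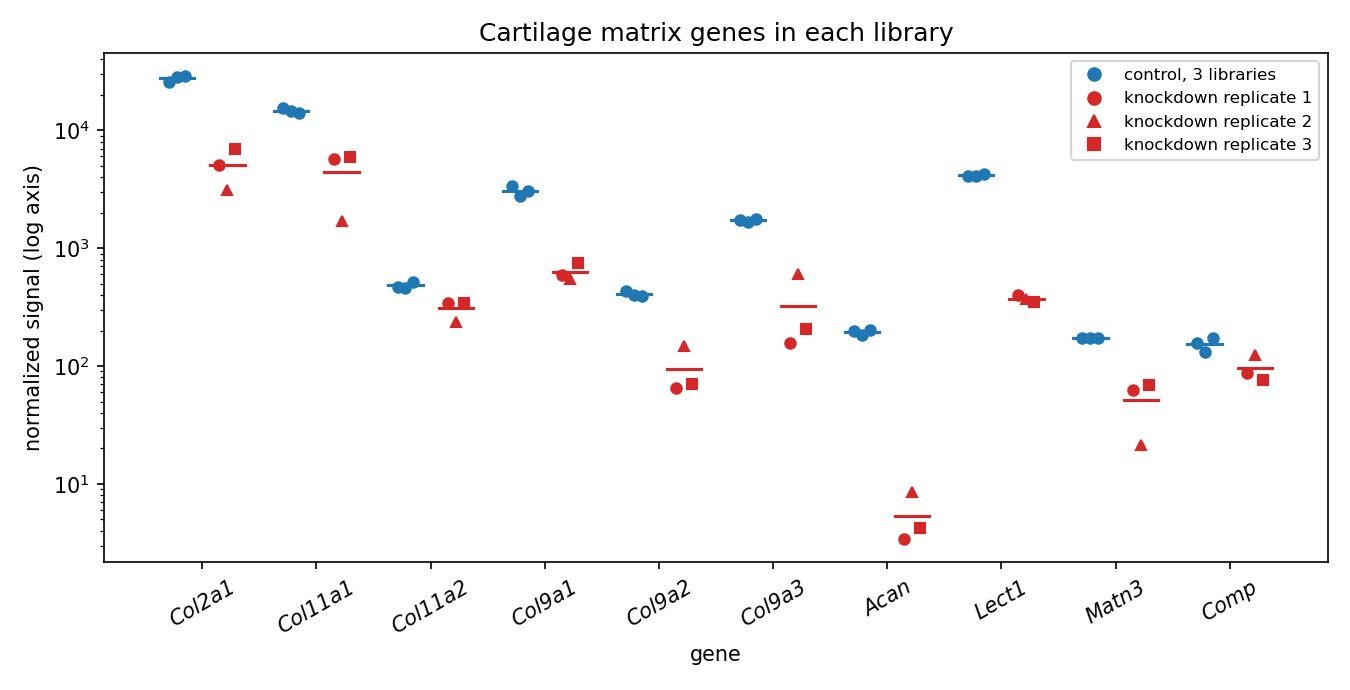
Normalized signal (log axis) of the 10 cartilage matrix genes in each of the 6 libraries, with short lines at group means. Every knockdown library (red) lies below every control library (blue) of the same gene, and knockdown replicate 2 (triangle) is the lowest knockdown for Col2a1, Col11a1, Col11a2, Col9a1 and Matn3 and the highest for Col9a2, Col9a3, Acan and Comp.

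**Figure D2:**
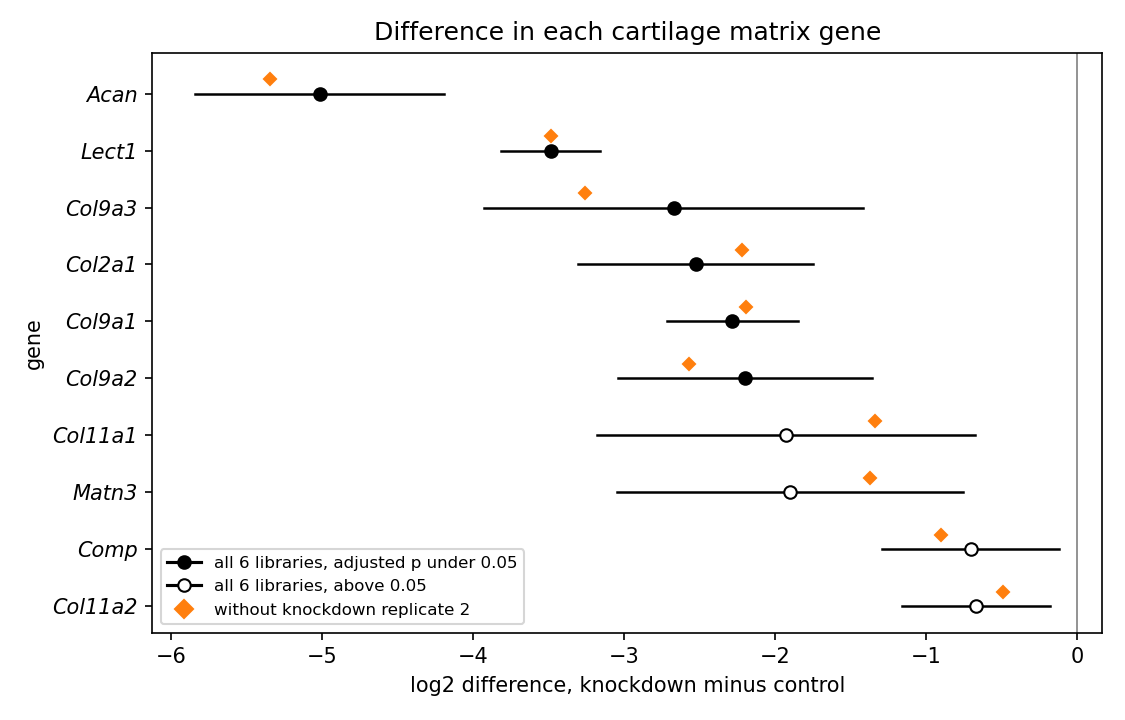
Log2 difference, knockdown minus control, for each gene with its 95% confidence interval from limma on all 6 libraries (circles and bars), and the value without knockdown replicate 2 (diamonds). The differences run from −5.01 for Acan to −0.67 for Col11a2, and filled circles mark the 6 genes with an adjusted p under 0.05.

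Col2a1 encodes the alpha 1 chain that forms type II collagen as a homotrimer, the main fibrillar collagen of cartilage. Its signal was 25646, 28425 and 28796 in the controls and 5078, 3142 and 6900.1 in knockdown replicates 1, 2 and 3. The highest knockdown was 26.9% of the lowest control. The mean was 5.48-fold lower, with a log2 difference of −2.52 (SE 0.32, limma adjusted p = 0.0159, lower in 3 of 3). Knockdown replicate 2 was the lowest of the group, and without it the difference was −2.22 (SE 0.12, limma adjusted p = 4.83e-06). The call was lost when control replicate 1, 2 or 3 was left out (limma adjusted p = 0.0982, 0.104 and 0.116) or knockdown replicate 1 (0.0863). The authors' deposited table of 323 differential genes also lists Col2a1, with a fold of 0.185.

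Type XI collagen, the thin core of the fibril, is assembled from the products of Col11a1 and Col11a2 with a further chain that derives from Col2a1. Col11a1 stood at 15374, 14550.0 and 14112 in control libraries against 5674, 1709 and 5931 after knockdown. The knockdowns lay below the controls, with replicate 2 far below the other 2. Its log2 difference was −1.93 (SE 0.51, 95% interval −3.18 to −0.67, limma adjusted p = 0.105). Without knockdown replicate 2 it was −1.34 (SE 0.06, limma adjusted p = 1.03e-08).

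Col11a2 differed least of the 10. It stood at 472, 464 and 520.3 in control libraries against 343, 238 and 346 after knockdown, 1.57-fold lower on the means. The groups did not overlap, and the log2 difference of −0.67 (SE 0.20, 95% interval −1.16 to −0.18, limma adjusted p = 0.134) did not pass. On the remaining 5 libraries, knockdown replicate 2 being left out, it was −0.49 (SE 0.08, limma adjusted p = 2.50e-04). The difference was unequal between the 2 type XI chains, and the groups did not overlap in their ratio. The ratio of Col11a1 to Col11a2 signal within a library was 32.6, 31.4 and 27.1 in the controls and 16.5, 7.18 and 17.1 in the knockdowns. Relative to Col2a1, Col11a2 was higher in each knockdown: the ratio was 0.0184, 0.0163 and 0.0181 in the controls and 0.0676, 0.0758 and 0.0502 in the knockdowns. These ratios are not corrected for length, were chosen after their values were seen and carry no test.

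Type IX collagen joins 1 chain from each of Col9a1, Col9a2 and Col9a3. Col9a1 stood at 3385, 2754 and 3038 in control libraries against 595, 553 and 746 after knockdown, with replicate 2 close to the others. It was 4.85-fold lower on the means (log2 difference −2.28, SE 0.18, limma adjusted p = 0.00695). The gene has an upstream start used in cartilage and a downstream start that gives a shorter chain, described in the eye. The table sums both, so they were not told apart.

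Col9a2 stood at 432, 400.9 and 390.2 in control libraries against 65.0, 149 and 70.3 after knockdown, 4.30-fold lower (log2 difference −2.20, SE 0.34, limma adjusted p = 0.0279). Col9a3 stood at 1731, 1684 and 1759.5 in control libraries against 157, 608 and 205 after knockdown, 5.33-fold lower (log2 difference −2.67, SE 0.51, limma adjusted p = 0.0463). In both genes knockdown replicate 2 was the highest of the group and still below every control. Without it the log2 difference was −2.57 for Col9a2 (SE 0.10, limma adjusted p = 5.34e-09) and −3.26 for Col9a3 (SE 0.10, limma adjusted p = 2.99e-09), and −2.19 for Col9a1 (SE 0.11, limma adjusted p = 3.16e-06). When only genes with a mean signal of 50 or more were tested, Col9a3 did not pass (limma adjusted p = 0.0522). With control replicate 1, 2 or 3 left out, none of the 3 chains passed (limma adjusted p from 0.0602 for Col9a1 to 0.205 for Col9a3). None passed without knockdown replicate 1 either (0.0578 for Col9a1, 0.107 for Col9a2 and 0.137 for Col9a3), and Col9a2 and Col9a3 did not without knockdown replicate 3 (0.0951 and 0.134). In GENCODE M21 Col9a3 overlaps Tcfl5, on the opposite strand, by 234 bases. The sources used here do not say whether the counting used strand, so reads of the 2 genes cannot be told apart there.

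The proportions of the 3 chains were compared within libraries, where scaling cancels. The Col9a1 to Col9a2 ratio of signals was 7.84, 6.87 and 7.78 in the controls and 9.15, 3.71 and 10.6 in the knockdowns. For Col9a1 to Col9a3 it was 1.96, 1.64 and 1.73 in the controls and 3.78, 0.909 and 3.63 in the knockdowns, and for Col9a2 to Col9a3 0.249, 0.238 and 0.222 against 0.414, 0.245 and 0.343. In every pair the knockdown libraries straddled or overlapped the controls, with replicate 2 apart from the other knockdowns. The log2 ratios differed by −0.09, 0.39 and 0.47 (exact permutation p = 1.0, 0.5 and 0.2, two-sided, 0.1 being the smallest that 3 against 3 allows, and 1.0, 0.75 and 0.6 adjusted over the 3 ratios). Without knockdown replicate 2 the differences were 0.38, 1.06 and 0.68, so the first changed sign. The data do not show that the proportions stayed the same.

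Fibrillar collagens of other connective tissue served as a comparison within the same libraries. Col1a1, which encodes a chain of type I collagen, the main collagen of bone and skin, stood at 81065, 100787 and 99254 in control libraries against 134466, 73093 and 158550.0 after knockdown. The groups overlapped, and it did not pass (log2 difference 0.31, SE 0.36, limma adjusted p = 0.592), while without knockdown replicate 2 it rose (0.65, SE 0.11, limma adjusted p = 4.99e-04). Replicate 2 was the lowest knockdown for this gene as it was for Col2a1. The ratio of Col2a1 to Col1a1 signal was 0.316, 0.282 and 0.290 in the controls and 0.0378, 0.0430 and 0.0435 in the knockdowns, so on this scale knockdown replicate 2 lay between the other 2 and the groups were far apart. The log2 ratio fell by 2.84 between group means, with an SD of 0.09 in the controls and 0.11 in the knockdowns (n = 3 each). Relative to Col3a1, the type III chain, Col2a1 stood at 0.335, 0.395 and 0.403 in control libraries against 0.0723, 0.107 and 0.0993 after knockdown. Col11a1 relative to Col5a1, a chain of type V collagen with a like place in the fibrils of other tissues, went from 1.04, 0.878 and 0.875 to 0.241, 0.158 and 0.245. These 3 ratios were added after their values were seen and carry no test. Leaving out each library in turn kept the log2 difference of the Col2a1 to Col1a1 ratio between −2.88 and −2.77.

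**Figure D3:**
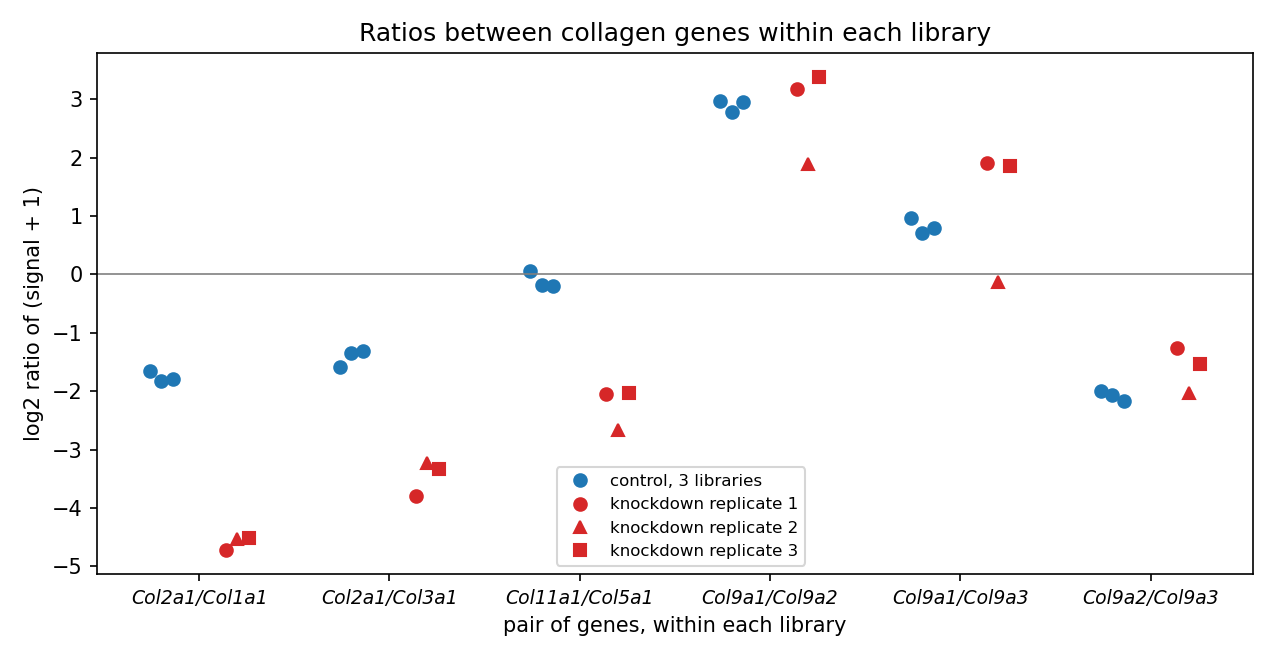
Log2 ratio of (signal + 1) between pairs of collagen genes within each library. The Col2a1 to Col1a1, Col2a1 to Col3a1 and Col11a1 to Col5a1 ratios are apart between controls (blue) and knockdowns (red), while in the 3 type IX pairs knockdown replicate 2 (triangle) lies apart from knockdown replicates 1 and 3.

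Of the 7 collagen chains listed for other connective tissue (Col1a1, Col1a2, Col3a1, Col5a1, Col5a2, Col5a3 and Col24a1), 6 were tested, 1 fell and 0 rose, with a median log2 difference of −0.07. The chain that fell was Col5a3, from 1892, 1674 and 1626 to 948, 927 and 1050.0 (log2 difference −0.83, SE 0.14, limma adjusted p = 0.0341). The 5 libraries other than knockdown replicate 2 gave 4 rises and 1 fall, with a median of 0.27. Here and in the lists below, counts without that library stand against 23.8% of all genes tested that rose and 26.1% that fell. The 10 cartilage genes had their median at −2.24 with all libraries and −2.21 without that one.

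Acan encodes aggrecan, the large proteoglycan whose chondroitin sulfate chains hold water in cartilage. It had the largest log2 difference of the 10. Its signal was 198, 183 and 201 in the controls and 3.39, 8.503 and 4.26 in the knockdowns, where the highest library was 4.65% of the lowest control. The knockdown values rest on an estimated 6, 2 and 6 reads, against 766, 73 and 223 in the controls. The 14 knockdown reads together have an exact Poisson 95% interval of 7.65 to 23.5, which covers counting error only. In knockdown replicate 2 alone the ratio to the control mean was 0.0438, with an interval of 0.00530 to 0.158. The log2 difference was −5.01 (SE 0.33, limma adjusted p = 0.00535), −3.74 with a pseudocount of 10 and −5.34 without knockdown replicate 2 (SE 0.20, limma adjusted p = 3.28e-09). It lost its call when control replicate 1, 2 or 3 was left out (limma adjusted p = 0.0659, 0.0541 and 0.0794). In the authors' deposited table Acan has a fold of 0.0283.

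Lect1 encodes chondromodulin, a secreted glycoprotein of avascular cartilage that inhibits vessel growth. It was the steadiest of the 10 in the knockdowns, at 397, 370 and 349, against 4127, 4088 and 4300.2 in the controls. Replicate 2 lay between the other knockdowns, and the coefficient of variation was 6.47%, against 16.1 to 76.5% for the other 9 genes. The mean was 11.2-fold lower (log2 difference −3.48, SE 0.13, limma adjusted p = 0.00244). The difference was the same to 2 decimals without knockdown replicate 2. It did not pass when control replicate 1, 2 or 3 was left out (limma adjusted p = 0.0509, 0.0536 and 0.0707).

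Matn3 encodes matrilin 3, an adaptor that ties collagen fibrils to aggrecan and other matrix proteins. The controls were within 1 unit of each other, at 172, 173 and 173, and the knockdowns stood at 62.8, 21.3 and 69.6. Replicate 2 was the lowest, on an estimated 5 reads. The log2 difference was −1.90 (SE 0.47, limma adjusted p = 0.0890), and −1.37 without replicate 2 (SE 0.12, limma adjusted p = 3.25e-06).

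Comp encodes cartilage oligomeric matrix protein, a pentameric thrombospondin that is also abundant in tendon. It stood at 157, 133 and 173 in control libraries against 87.6, 123 and 76.0 after knockdown. The groups were separated by a narrow gap, since the highest knockdown, replicate 2, was 92.8% of the lowest control. The log2 difference was −0.71 (SE 0.24, 95% interval −1.29 to −0.12, limma adjusted p = 0.177). Without knockdown replicate 2 it was −0.90 (SE 0.15, limma adjusted p = 3.09e-04).

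Levels of different genes were compared per kilobase of the principal GENCODE M21 transcript. In the controls Col2a1 came first, at 5412 ± 337 signal units per kilobase (SD, n = 3), then Lect1 at 2911 ± 78.7, Col11a1 at 1915 ± 83.5, Col9a1 at 798 ± 82.5 and Col9a3 at 566 ± 12.5. Far below lay Col9a2 at 139 ± 7.35, Col11a2 at 90.0 ± 5.68, Comp at 63.8 ± 8.30, Matn3 at 57.2 ± 0.16 and Acan at 26.4 ± 1.35 (SD, n = 3). In this order the libraries of Comp and Matn3 overlapped, and those of the other 8 neighbouring pairs did not. The 10 genes thus ran from Col2a1 down to Acan, and some chains of 1 collagen type lay far apart: Col11a1 was well above Col11a2, and Col9a1 well above Col9a2. Col9a1 and Col9a3 were closer, at 798 and 566. In the knockdowns Col2a1 was still first, at 987 ± 368, followed by Col11a1 at 579 ± 309, Lect1 at 260 ± 16.8, Col9a1 at 165 ± 26.5 and Col9a3 at 106 ± 81.2. The rest were Col11a2 at 57.3 ± 11.4, Comp at 39.6 ± 10.2, Col9a2 at 32.4 ± 16.04, Matn3 at 17.0 ± 8.68 and Acan at 0.732 ± 0.372 (SD, n = 3). There 7 of the 9 neighbouring pairs overlapped, the exceptions being Lect1 with Col9a1 and Matn3 with Acan.

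Knockdown replicate 2 differed from replicates 1 and 3 in a gene-specific way. On the log2 scale it was above their mean by 1.75 for Col9a3, 1.13 for Col9a2, 0.98 for Acan and 0.59 for Comp. It was below by −1.76 for Col11a1, −1.59 for Matn3, −0.91 for Col2a1, −0.53 for Col11a2 and −0.27 for Col9a1, and at −0.01 for Lect1. Over 10893 tested genes with a length, the Spearman correlation of this difference with transcript length was −0.604, and over the 10 cartilage genes it was −0.394. The points share the same 3 libraries and are not replicates. The part of transcript length and depth in these differences was not tested.

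**Figure D4:**
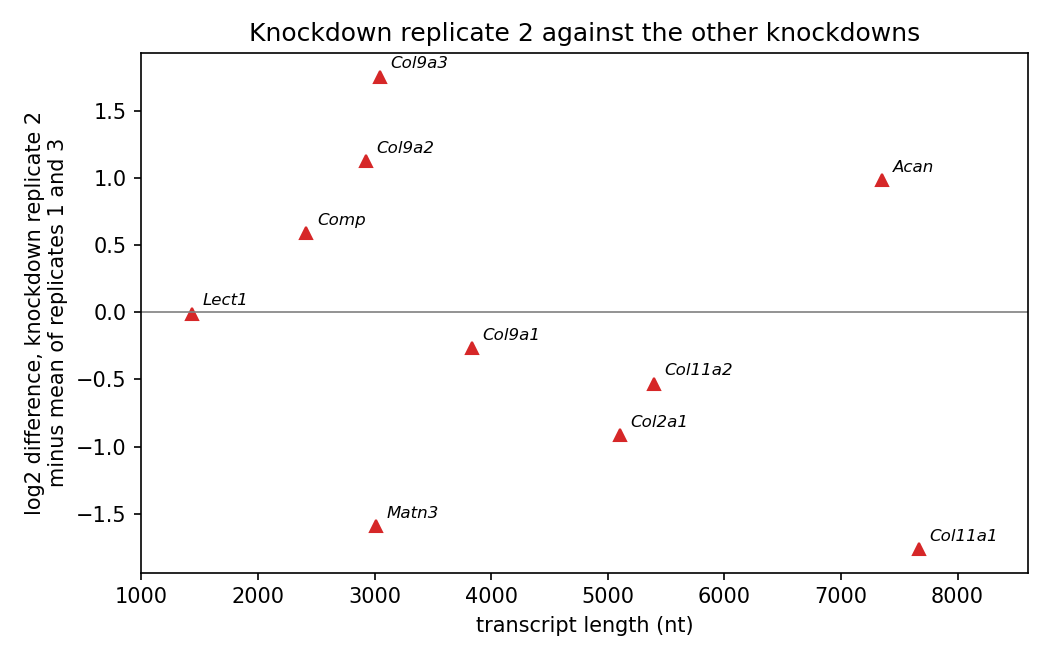
Log2 difference of knockdown replicate 2 from the mean of replicates 1 and 3 against transcript length in nucleotides, 1 point per cartilage matrix gene. The short transcripts of Col9a3, Col9a2 and Comp are above 0 and the longer ones of Col9a1, Col2a1, Col11a2 and Col11a1 below it. The long Acan (above 0), the short Matn3 (below 0) and the shortest, Lect1 (−0.01), do not follow this order.

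Sox9 and its partners, which activate these genes in chondrocytes, were measured in the same libraries. Sox9 stood at 7254, 6469 and 6411 in control libraries against 2428, 1420.1 and 2748 after knockdown (log2 difference −1.66, SE 0.28, limma adjusted p = 0.0327). Its call was lost with scaling to library totals (limma adjusted p = 0.111) and without knockdown replicate 1 (0.112) or 3 (0.0723), and the difference was −1.38 without knockdown replicate 2 (limma adjusted p = 5.54e-08). Sox6 went from 465, 449 and 495 to 66.7, 46.8 and 79.6 (log2 difference −2.88, SE 0.23, limma adjusted p = 0.00758). Sox5 went from 108, 92.7 and 80.4 to 14.1, 4.25 and 13.5 (log2 difference −3.17, SE 0.46, limma adjusted p = 0.0240), the value in knockdown replicate 2 being 1 read, and lost its call with scaling to library totals (limma adjusted p = 0.0552) and without knockdown replicate 1 (0.0807) or 3 (0.0707). Sox6 lost its call without knockdown replicate 1 (limma adjusted p = 0.0578). Sox9, Sox5 and Sox6 each lost their call when control replicate 1, 2 or 3 was left out (limma adjusted p from 0.0602 for Sox6 to 0.168 for Sox9). In all 3 genes every knockdown lay below every control. Of 13 listed transcription regulators of cartilage, 10 were tested, and these 3 fell while 0 rose, with a median of −0.65. On the 5 other libraries, knockdown replicate 2 being left out, 6 fell and 0 rose, with a median of −0.27.

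Other cartilage matrix genes formed a list of 17, of which 11 had a mean of at least 10. Among these 5 fell and 1 rose, where 1.78 and 3.2% of all genes tested did so, and the median log2 difference was −2.06. Col27a1, a fibrillar collagen of cartilage, went from 6668, 6255 and 6253 to 1232, 1301 and 1308, 4.99-fold lower (log2 difference −2.32, SE 0.13, limma adjusted p = 0.00325). Col10a1, the collagen of hypertrophic chondrocytes, went from 241, 183 and 163 to 36.8, 25.5 and 50.5 (log2 difference −2.38, limma adjusted p = 0.0174). Fmod, a small proteoglycan that binds collagen fibrils, went from 211, 185 and 229 to 7.92, 21.3 and 9.95 (log2 difference −4.01, limma adjusted p = 0.00918). All knockdown libraries of these 3 genes lay below all controls. Ucma, encoding a small protein of the growth plate, stood at 24.9, 20.05 and 28.0 in the controls and fell to 0.57, 0 and 0, that is, an estimated 1 read over the 3 knockdowns (limma adjusted p = 0.00758). Susd5, named after its values were seen, fell too (log2 difference −2.22). The exception was Otor, which encodes the cochlear cartilage protein otoraplin and rose from 40.2, 25.1 and 35.2 to 683, 825 and 395 (log2 difference 4.16, SE 0.34, limma adjusted p = 0.00758). The 5 libraries other than knockdown replicate 2 gave 9 falls and 1 rise, with a median of −2.14.

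Aggrecan needs long chondroitin sulfate chains, so the enzymes and transporters that make them and hyaluronan were listed (22 genes, 21 tested). Of these 2 fell and 0 rose, with a median of −0.65. Papss2, which makes the sulfate donor, went from 7591, 7644 and 7701 to 1313, 1288 and 1410.4, 5.72-fold lower (log2 difference −2.52, SE 0.13, limma adjusted p = 0.00287). Chst11, a chondroitin sulfotransferase, went from 2883, 2706 and 2565 to 845, 408 and 971 (log2 difference −1.97, SE 0.34, limma adjusted p = 0.0373). Both were below the controls in every knockdown. Of the 21, 10 fell and 4 rose when knockdown replicate 2 was left out, where 26.1% of all genes tested fell and 23.8% rose. The median was then −0.25. With scaling to library totals Chst11 did not pass (limma adjusted p = 0.112).

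Among 16 proteases of cartilage matrix and their inhibitors, 13 were tested, 1 rose and 0 fell, and the median was −0.36. Htra1, a secreted serine protease, rose from 216, 175 and 193 to 752, 1249.9 and 617 (log2 difference 2.10, SE 0.29, limma adjusted p = 0.0205). Mmp13 was listed at 0 in every library. There were 5 rises and 7 falls when knockdown replicate 2 was left out, where 23.8% of all genes tested rose and 26.1% fell. The median of the proteases and inhibitors was then −0.33. Of 10 receptors and ligands of cartilage development 4 were tested, with 1 rise and 1 fall. Bmp4, a bone morphogenetic protein gene, rose from 617, 704 and 722 to 5622, 5222 and 4638 (log2 difference 2.92, SE 0.15, limma adjusted p = 0.00287), and the receptor gene Fgfr3, which restrains chondrocyte growth, fell from 887, 792 and 740 to 319, 183 and 360 (log2 difference −1.54, SE 0.29, limma adjusted p = 0.0431). The median of the 4 was 1.57, and without knockdown replicate 2, 3 rose and 1 fell, with a median of 1.24.

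**Figure D5:**
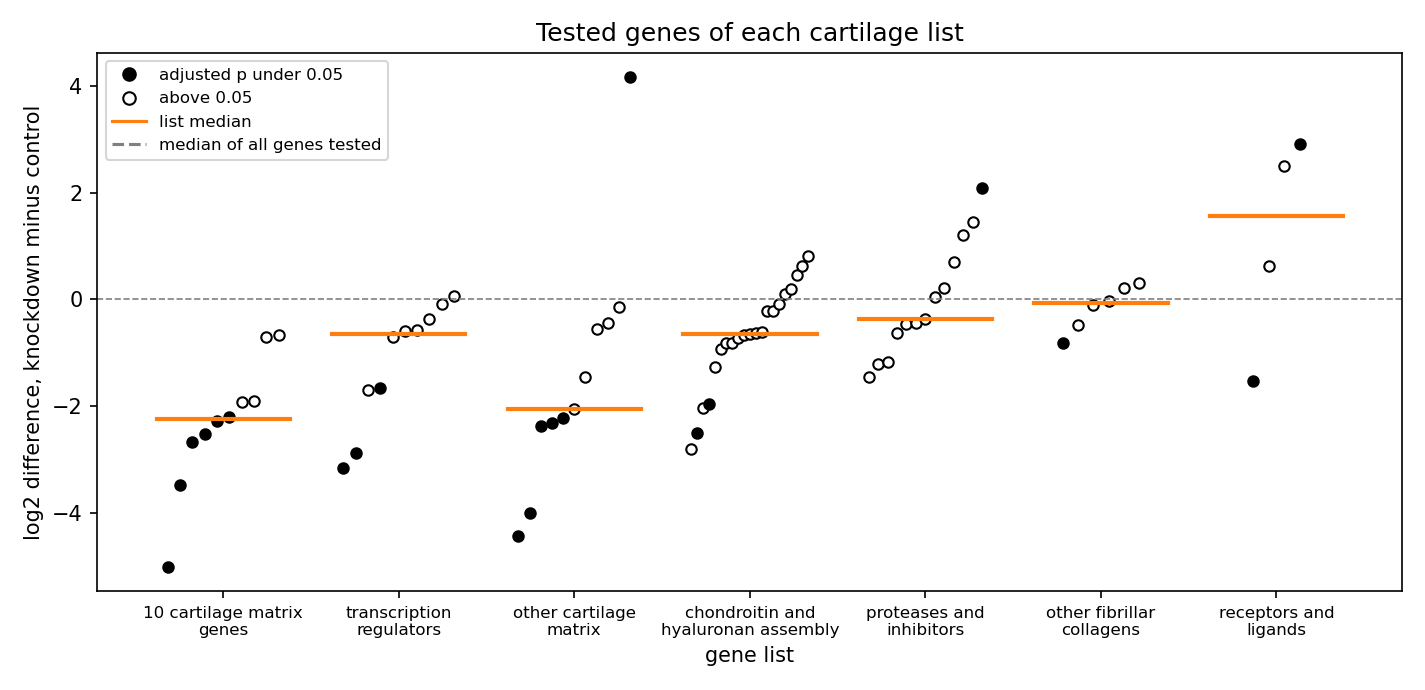
Log2 difference, knockdown minus control, of each tested gene in 7 lists (1 circle per gene, filled where the adjusted p is under 0.05), with list medians in orange and the median of all genes tested as a dashed line. The 10 cartilage matrix genes have a median of −2.24 and other cartilage matrix genes one of −2.06, while other fibrillar collagens lie around 0, at −0.07.

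Markers of other lineages that these progenitors can enter moved in both directions. Of 7 adipocyte markers 4 were tested, and Pparg, the master regulator of fat cells, fell from 616, 692 and 675 to 326, 217 and 298 (log2 difference −1.25, limma adjusted p = 0.0281). Fabp4, a fatty acid binding protein gene, stood at 33.1, 30.1 and 27.1 in control libraries against 50.3, 162 and 49.0 after knockdown (log2 difference 1.27, limma adjusted p = 0.233). Lpl, which encodes lipoprotein lipase, stood at 67.0, 105 and 98.8 against 173, 316 and 175 (1.25, limma adjusted p = 0.0990). Both were above all controls in every knockdown without passing, and the median of the 4 was 0.56. Fabp4 and Lpl were named after their values were seen. The summed signal of the 7 was 1289 to 1307 in the controls and 926 to 1217 in the knockdowns, with Plin1 at 0 throughout. The untested Adipoq, also named after its values were seen, went from 11.1, 5.01 and 9.03 to 1.13, 0 and 1.42. Of 6 osteoblast markers 2 were tested and neither passed: Spp1 had a log2 difference of 0.43 (limma adjusted p = 0.386) and Dmp1 one of 2.08 (0.240). Of 5 smooth muscle markers 3 were tested and 1 rose, Tagln, from 131, 190.4 and 131 to 543, 1003 and 487 (limma adjusted p = 0.0291). Of 5 skeletal muscle markers 2 were tested and neither passed, Des (log2 difference 2.19, limma adjusted p = 0.105) and Acta1 (1.67, limma adjusted p = 0.112), while the defining Myod1 and Myog were at or near 0. Of 4 tendon markers, all tested, 1 fell, and the median of the 4 was 0.22. The marker that fell was Tnmd, which encodes tenomodulin, the closest relative of chondromodulin. Tnmd went from 811, 662 and 680.2 to 132, 166 and 125 (log2 difference −2.35, SE 0.18, limma adjusted p = 0.00695). Scx, Mkx and Egr1 had log2 differences of 0.64, 0.35 and 0.09 and did not pass (limma adjusted p = 0.305, 0.558 and 0.929). Scx, Mkx and Egr1 were named after their values were seen. Of 6 markers of leukocytes, endothelium and epithelium 1 was tested, and Cd68 had a log2 difference of 0.02 (limma adjusted p = 0.969), while Pecam1 did not exceed 2.84. When knockdown replicate 2 was left out, Fabp4, Lpl, Spp1, Dmp1, Smtn, Des, Acta1 and Mkx also rose, and Pparg and Tnmd still fell. In that setting 23.8% of all genes tested rose and 26.1% fell, so such a call is common. The part of a change in cell mix in the fall of the cartilage genes was not tested.

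The genes whose log2 values followed the mean of the 10 most closely, out of 10087 with a mean of at least 50, were Papss2, Ets2, Il1rn, Col27a1, Slc2a1 and Fam102a, with Pearson correlations of 0.9997 to 0.9985 over the 6 libraries. The points share their 6 libraries and split into 2 groups, so the correlation is given as a description only. Ets2, a transcription factor gene, stood at 1952, 1920 and 1918 in control libraries against 511, 527 and 571 after knockdown. Among the 10 themselves, the correlation with the mean of the other 9 ran from 0.815 for Comp to 0.997 for Lect1.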

How the data were processed

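RNA of C3H10T1/2 cells was isolated with Trizol and made into TruSeq libraries, per the labels' protocols; the labels also describe tumour implants of another cell line, and that text was not used. Mouse build mm9, RSEM 1.2.12 and Bowtie 1.0.0 are named per the submitters' processing notes; the sources used here give neither annotation nor strand setting. The authors deposited a normalized signal per gene and library (estimated reads divided by a size factor). They also deposited a table of 323 differential genes with a linear fold, the ratio of knockdown to control, whose test the sources used here do not name. It lists 6 of the 10 genes, with folds from 0.0283 for Acan to 0.237 for Col9a2. The genes of the 10 not listed had ratios of group means from 0.297 for Matn3 to 0.637 for Col11a2. A cut on fold alone would therefore give the same listing.

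The value of 1 read was taken as the most frequent lowest value of each library; 88.3 to 90.5% of values up to 20 reads were whole multiples within 0.1 read, so reads are estimates and no count test was run. limma 3.58.1 (R 4.3.3) was fitted to log2(value + 1) of genes with a mean signal of at least 10 (trend and robust options, two-sided, Benjamini-Hochberg over all genes tested, threshold 0.05). The added 1 makes the log2 difference understate the change of low genes. Values given as fold lower are ratios of group means without it. Exact permutation tests of 3 against 3 cannot go below 0.1. All replicate pairs differed by more than sampling noise (chi-square divided by its degrees of freedom at least 1.51). Same-numbered libraries did not deviate together (correlations 0.170, −0.0506 and −0.0507), so replicate numbers were not taken to pair samples.

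The genes and lists were chosen with earlier results of these data known. Named genes are the 10 and Ring1, Rnf2, Sox9, Sox5 and Sox6; up to 5 passing genes of each list by smallest adjusted p, or the 2 most abundant; and the 6 most like the mean of the 10. Alternatives were pseudocounts of 0.1 and 10, other filters, scalings and limma options, library weights, a replicate block and each library left out.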

Additional observations from a re-analysis of the deposited data

How the results depend on the processing

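All 10 cartilage genes kept a lower value in the knockdown under every alternative run. Their count past the threshold, 6 with all libraries, was 10 with library weights (which gave knockdown replicate 2 a weight of 0.0172), 0 with the replicate number as a block and from 0 to 10 when 1 library was left out; it was 5 or 6 with other pseudocounts, filters, scalings and limma options. Of all genes, 387 rose and 215 fell; with total scaling, which moved the median log2 difference of all genes to −0.14, 184 rose and 118 fell, with library weights 3048 and 3254, and with the block 0 and 0 (1866 at an unadjusted p under 0.05). Leaving out 1 library gave 0 to 2855 rises and 0 to 3136 falls. Of 602 calls with all libraries, 598 were made again without knockdown replicate 2, in the same direction. With the block, all 28 named genes that had a call lost it (the other 10 of 38 had none); the replicate numbers are not shown to pair the samples, so this is not a weaker effect. The log2 difference of the Col9a1 to Col9a2 ratio ranged from −0.37 to 0.38 when 1 library was left out, the latter without knockdown replicate 2. Cd68, at 0.02, changed sign with total scaling (−0.11) and library weights (−0.19) and ranged from −0.25 to 0.26 when 1 library was left out. The cause was not tested. Scaling to library totals ended the call of 8 named genes (Sox9, Sox5, Chst11, Col5a3, Fgfr3, Pparg, Il1rn and Slc2a1). Htra1, Tagln, Pparg, Fgfr3, Chst11 and Col5a3 were among the genes that lost their call without knockdown replicate 1 and also without knockdown replicate 3. Depth limits genes with few knockdown reads, such as Acan, Ucma, Fmod and Sox5: 3 reads are worth 0.777 signal units in the deepest library and 12.8 in the shallowest.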
